A study of Mus musculus with 12 samples.

Results

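Intracisternal A particles (IAPs) are mouse endogenous retroviruses whose long terminal repeats (LTRs) carry promoters and signals that end transcripts. The 7 genes described here are among those that the study listed with a variably methylated IAP from which a transcript starts (an initiating element) or at which a transcript stops (a terminating element), and they are 7 of the 41128 genes in the deposited expression table. A further gene listed with an initiating element, Vmn2r97, was under the filter on low values. Among the 7, the initiating elements belong to Slc15a2, Eps8l1, 2610035D17Rik and Bmf, and the terminating elements to Rnf157, Gm15800 and Mbnl1. The choice did not use the values below, but the study had first looked for such elements beside genes whose expression in lymphocytes differed between C57BL/6J and another strain, and the genes were taken up here with their spread between libraries already known.

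A retroviral LTR is normally silenced by DNA methylation in somatic cells. At a metastable epiallele, the textbook case being the Agouti viable yellow allele, an IAP LTR is methylated to a different extent in genetically identical mice, and a gene transcribed from that LTR is expressed at a different level in each animal. An LTR inside or upstream of a gene can also be read from the strand opposite to its own, so that the transcript runs outwards into the flanking gene.

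The data are 12 RNA sequencing libraries of splenic lymphocytes from C57BL/6J mice of 6 to 8 weeks of age, in 4 groups of 3: resting CD43- B cells from females and from males, and naive CD4+ CD62L+ T cells from females and from males. The labels name no transgene and no treatment, and each library is a pool of mice, so an animal with a high level is averaged with the others of its pool. In each sex the libraries of B cells carry the numbers 1 to 3 and those of T cells the numbers 4 to 6. The values are named adjusted TPM, where TPM is a length-corrected share of transcripts and the adjustment is not described, with a lower and an upper bound for each library. Depth is unknown, no value is exactly 0, and the totals ran from 561020 to 1453940, with the highest in male T 6. A single transcript, Yam1, took 37.4% of the total in male T 6 and 32.2% in female B 1, while the leading transcript took at most 17.8% in the remaining libraries. The summed level of 4 B cell markers was 2220 to 2643 in B and at most 4.91 in T cells, and that of 5 T cell markers was 1017 to 1194 in T and at most 14.1 in B cells. Among other cell types, the sum of the haemoglobin genes Hbb-bs and Hba-a1 ran from 0.558 to 195.9 in B and from 1.94 to 42.9 in T cells. The monocyte genes Lyz2 and Cd68 summed to 8.55 to 12.6 in B and 0.987 to 3.59 in T cells, and neutrophil and natural killer cell markers stayed at or under 2.56. The CD8 genes summed to at most 8.27 and differed in direction. Cd8a had a mean of 1.36 in B and 0.166 in T cells, and Cd8b1 0.0383 and 7.06. Plasma cell genes (Sdc1, Prdm1) summed to at most 7.67 in B and 1.96 in T cells, and dendritic cell genes (Flt3, Zbtb46, Siglech) to at most 4.21 and 2.79. Prdm1 and Zbtb46 were higher in T cells, unlike Sdc1 and Flt3.

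The sequences come first, because for a pair of the initiating genes they place an annotated transcript start inside the LTR. The study's bisulfite pyrosequencing primers mark each element, and they were matched to the GENCODE M21 transcripts and the RefSeq promoter windows with T in a primer allowed to stand for a converted C. Of the 6 genes with such an assay (Gm15800 has none), 2 had a match of the locus-specific forward primer in their own transcripts. In the following line the capitals mark primer T bases that stand for a C of the genome, on the strand opposite to Eps8l1.
Eps8l1 forward primer, chr7:4460713-4460737: aagggggaTtgtggTtggttatTag
Its partner, the reverse primer, lies further into the LTR, and here capitals mark A bases that stand opposite a converted C.
Eps8l1 reverse primer, chr7:4460534-4460562: tcactccctAattAActAcaAcccatAAc
The forward primer matched 2 transcripts of Eps8l1 and no other gene, whereas the reverse primer also matched 22 transcripts of other genes, as a primer inside a repeat does.

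The amplicon between these primers covers 204 bases and 9 CG dinucleotides and contains the 5' ends of 2 quantified Eps8l1 transcripts, at position 4460674 and position 4460702 of chromosome 7 (GRCm38). The 250 bases upstream of the corresponding RefSeq start are shown with every CG in capitals, since CG is the site of DNA methylation.
Eps8l1, upstream of the start in the LTR, chr7:4460447-4460696, plus strand: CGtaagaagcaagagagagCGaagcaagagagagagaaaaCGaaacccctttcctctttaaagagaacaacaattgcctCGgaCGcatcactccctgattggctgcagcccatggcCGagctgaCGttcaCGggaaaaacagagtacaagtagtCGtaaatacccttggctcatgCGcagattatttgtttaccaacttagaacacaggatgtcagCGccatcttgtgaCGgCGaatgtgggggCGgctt
This window holds 14 CG, a number that 29.4% of the 32851 RefSeq windows of this length reach or pass. The other 2 Eps8l1 windows, which start from 4464485 and 4464599 and lie outside the element, hold 7 and 3 CG.

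In the long noncoding RNA 2610035D17Rik, 2 of the 4 quantified transcripts share a first exon of 125 bases that begins inside a solo LTR. It is shown because its first bases repeat those of the Eps8l1 window.
2610035D17Rik, first exon, chr11:113172953-113173077, minus strand: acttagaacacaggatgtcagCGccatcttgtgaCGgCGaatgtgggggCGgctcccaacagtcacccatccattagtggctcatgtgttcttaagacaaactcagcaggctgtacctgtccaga
The first 54 bases, counted from the transcript's own first base, are identical to chr7:4460642-4460695 in the Eps8l1 window, and they hold all 4 CG of the exon. The Eps8l1 transcript that starts at 4460674 begins within this stretch, so the end of the stretch is part of that transcript. The same 54 bases are present in 19 annotated transcripts of 17 genes. Reads that fall wholly within them cannot be assigned to 1 locus by their sequence, and how the authors' counting dealt with such reads is not given in the sources used here. The exon continues into unique sequence, where 27 of the 28 bases of the locus-specific forward primer lie. In both genes transcription from these starts runs against the orientation of the element.

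For the remaining 5 genes no quantified transcript starts or ends in the element in the annotation, and the deposited value is a sum over annotated transcripts, so an IAP-started or IAP-ended transcript is not separated in any of the 7 values. Slc15a2 (chromosome 16, 36750177 to 36784962, minus strand), which encodes a proton-coupled transporter of short peptides, holds its element in an intron with 7 of the 22 exons of its longest transcript before it and 15 after. It is the only gene of the 7 whose element has the gene's own orientation. Of its 14 quantified transcripts, 3 run across the element, 4 lie before it and 7 start after it. The element of Bmf (chromosome 2, 118528757 to 118549687, minus strand) is upstream of all 8 quantified transcripts. The 14 Eps8l1 transcripts (chromosome 7, 4460674 to 4480487, plus strand) comprise the 2 from the LTR and 12 that start after it.

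The terminating elements lie within the genes. In Rnf157 (chromosome 11, 116336353 to 116413032, minus strand), 2 of the 19 exons of the longest transcript precede the element. Of the 11 quantified Rnf157 transcripts, 8 start after the element, 2 run across it and 1 lies before it. In Gm15800 (chromosome 5, 121220219 to 121368577, plus strand), named Hectd4 in RefSeq, 49 of 76 exons precede it, and of the 7 quantified transcripts 5 lie wholly before it, 1 runs across it and 1 was not found in the annotation. The row of Mbnl1 (chromosome 3, 60472830 to 60629750, plus strand) holds only 1 transcript, which starts after the element. Transcripts from the upstream Mbnl1 start that would stop in the element are therefore outside this row. Of the 7 elements, 5 keep both LTRs and an internal part, and those of 2610035D17Rik and Gm15800 are solo LTRs.

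**Figure D1:**
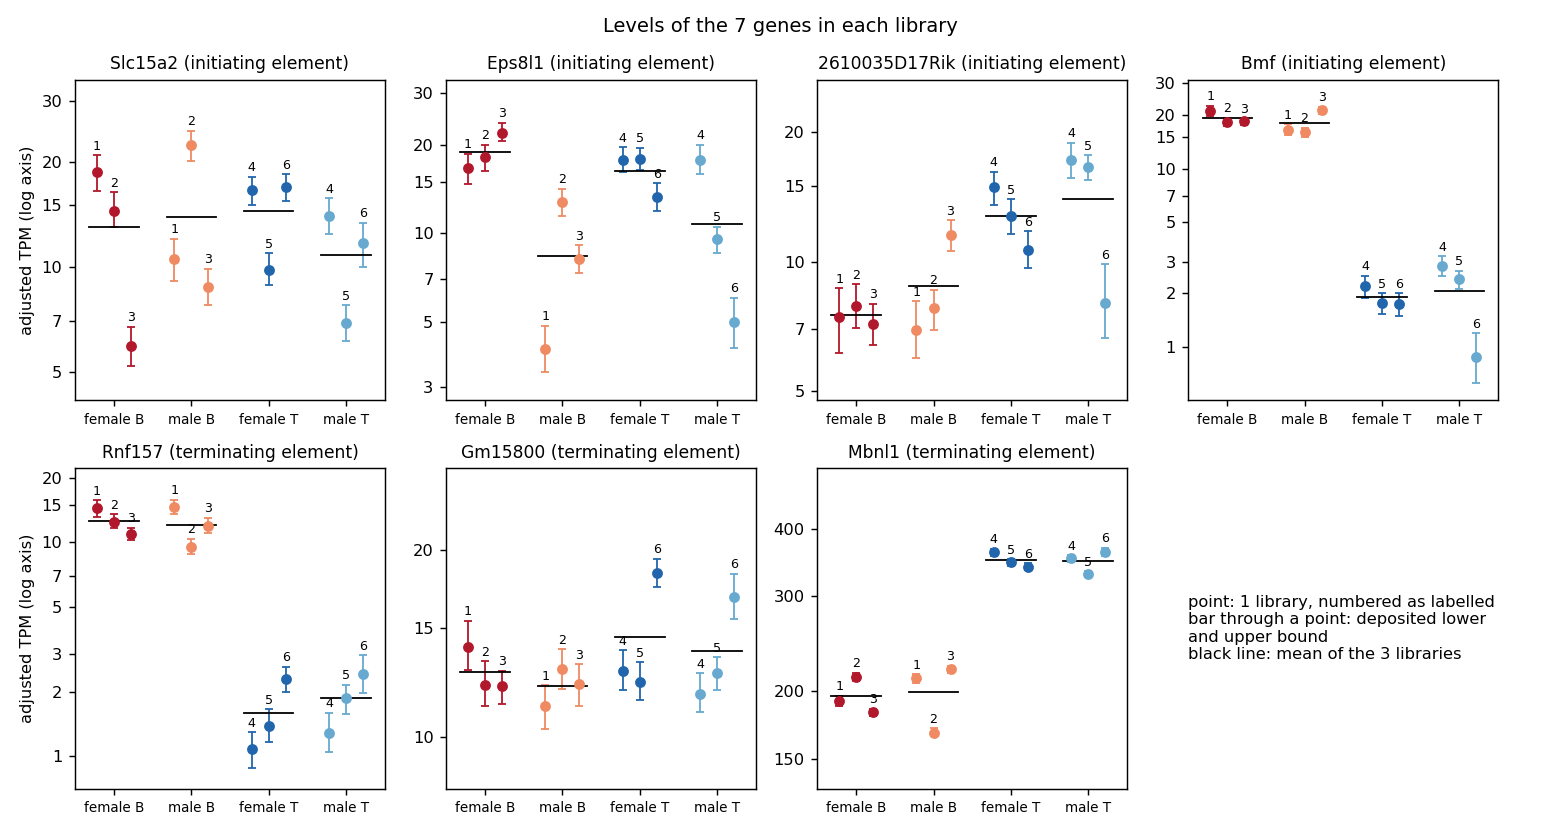
Adjusted TPM (log axis) of each of the 7 genes in the 12 libraries, in 4 groups of 3, with the deposited lower and upper bound as a bar and the group mean as a black line. Bmf and Rnf157 separate B from T cells, Mbnl1 does so in the opposite direction, and the Slc15a2 and Eps8l1 libraries of 1 group lie further apart than their bounds.

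Slc15a2 was expressed at a similar average level in all 4 groups, but with wide differences between the pools of a group. It had 18.7, 14.5 and 5.91 adjusted TPM in female B cells 1 to 3, and 10.5, 22.4 and 8.72 in male B cells 1 to 3. In T cells it had 16.6, 9.81 and 16.9 in females 4 to 6, and 14.0, 6.87 and 11.7 in males 4 to 6. All 4 groups overlapped, and the highest library exceeded the lowest by 3.16-fold in female B, 2.57-fold in male B, 1.73-fold in female T and 2.03-fold in male T cells. The median gene tested differed by 1.20-fold to 1.22-fold between the highest and lowest library of a group. In female B cells the 3 libraries had no overlapping bounds, with 5.17 to 6.73 in library 3 and 16.5 to 20.9 in library 1.

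Eps8l1, an adaptor of the EPS8 family that links receptor signalling to the actin cytoskeleton, was spread mainly among the male pools. Female B cells had 16.7, 18.1 and 22.03 adjusted TPM, whereas male B cells 1 to 3 had 4.06, 12.8 and 8.18. Female T cells had 17.8, 17.9 and 13.3, and male T cells 4 to 6 had 17.8, 9.58 and 5.004. The highest male library exceeded the lowest by 3.16-fold in B and 3.56-fold in T cells, against 1.32-fold and 1.35-fold among females. Whether the spread itself differed between the sexes was not tested. The haemoglobin sum was 195.9 in male B 1, 2.70 in male B 2 and 96.0 in male B 3, opposite in order to Eps8l1, and 0.558, 39.0 and 34.3 in female B 1 to 3, where the library with the least haemoglobin also had the least Eps8l1. It was 3.54, 3.10 and 16.9 in female T 4 to 6, also opposite in order to Eps8l1, of which libraries 4 and 5 had nearly the same level. In male T 4 to 6 it was 1.94, 42.9 and 6.18, and the library with the least Eps8l1 was not the one with the most haemoglobin. The part of haemoglobin in the Eps8l1 values was not tested.

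2610035D17Rik was even among female B cells and uneven in the other groups. Its level was 7.43, 7.92 and 7.18 adjusted TPM in female B cells and 6.96, 7.83 and 11.5 in male B cells, and the bounds of male B 3 (10.6 to 12.5) lay above those of every other B cell library. In T cells it was 14.9, 12.8 and 10.6 in females and 17.3, 16.6 and 8.04 in males, with male T 6 close to the highest female B cell library. Bmf, a BH3-only protein that binds the survival proteins of the Bcl-2 family and promotes apoptosis, had 21.1, 18.2 and 18.4 in female and 16.5, 16.0 and 21.3 in male B cells. In T cells it had 2.19, 1.76 and 1.74 in females and 2.85, 2.41 and 0.879 in males. The B and T cell libraries of Bmf did not overlap, and male T 6 was the lowest library by a wide margin.

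Among the terminating genes, Rnf157, a RING-type ubiquitin ligase, had 14.4, 12.5 and 10.9 adjusted TPM in female and 14.7, 9.55 and 11.99 in male B cells. In T cells it had 1.09, 1.39 and 2.31 in females and 1.29, 1.87 and 2.43 in males. The B and T cell libraries did not overlap, and in both sexes library 4 was the lowest and library 6 the highest of the T cells. Gm15800, which encodes a large protein with a HECT-type ubiquitin ligase domain, had 13.9, 12.1 and 12.1 in female B, 11.2, 12.9 and 12.2 in male B, 12.8, 12.3 and 18.4 in female T and 11.7, 12.7 and 16.8 in male T cells. Both T cell libraries numbered 6 were higher than the other 10. Mbnl1, a muscleblind RNA-binding protein that regulates splicing, was the most abundant per length, with 192.1, 213.1 and 182.9 in female B, 211.4, 167.9 and 219.9 in male B, 361.6, 346.4 and 340.3 in female T and 352.7, 329.1 and 362.6 in male T cells. Its B and T cell libraries did not overlap.

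The spread between replicate libraries was summarised as the SD of log2(adjusted TPM + 1) within groups, pooled over the 4 groups. It was 0.61 for Slc15a2, 0.57 for Eps8l1, 0.35 for 2610035D17Rik, 0.31 for Bmf, 0.28 for Rnf157, 0.21 for Gm15800 and 0.13 for Mbnl1. The median over the 12520 genes tested was 0.13 and the 90th percentile 0.24, so that 6 of the 7 genes lay above the median (4 of 7 with every library rescaled to the same total, when Rnf157, Gm15800 and Mbnl1 were below it), and 150 genes had a larger SD than Slc15a2 and 172 than Eps8l1. The 4 initiating genes had the 4 highest values of the 7, which is a description of 7 genes and was not tested. The pools within a group differed by more than their deposited bounds in 52 of 84 gene and pair combinations (12 pairs of libraries for each gene), against 25.5% over all genes tested. By gene the number was 10 of 12 for Eps8l1 and for Mbnl1, 9 for Slc15a2, 7 for Rnf157, 6 for Bmf and 5 for 2610035D17Rik and Gm15800. For Mbnl1 this came with a small SD and narrow bounds, whose upper limit exceeded the lower by a median of only 1.03-fold.

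**Figure D2:**
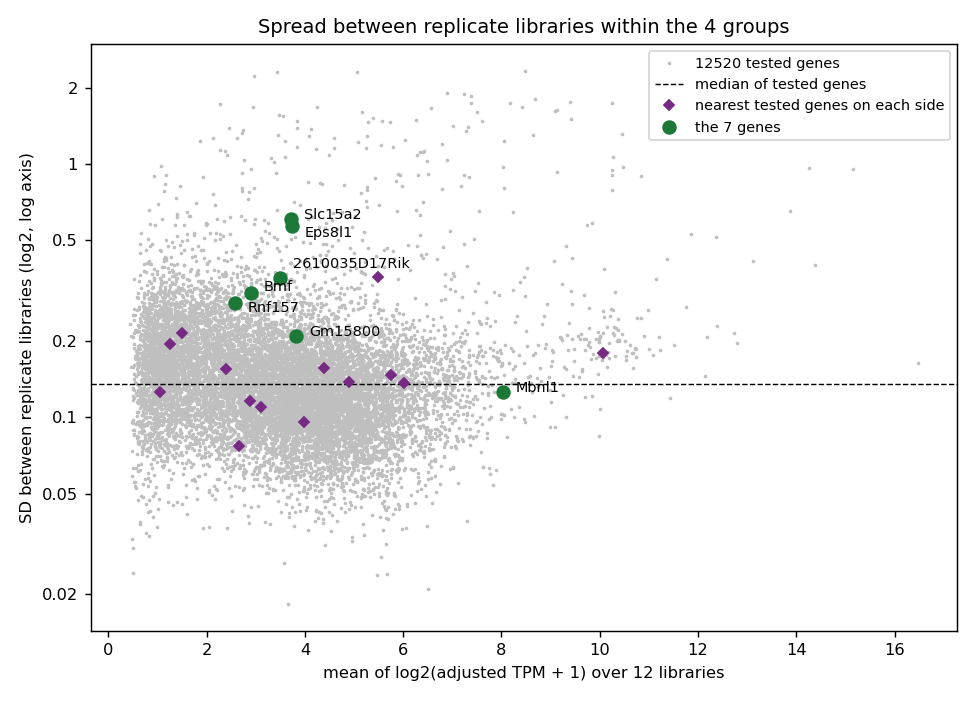
SD of log2(adjusted TPM + 1) between replicate libraries (log axis) against the mean log2 level for the 12520 genes tested (grey), with the 7 genes in green, the nearest tested gene on each side of each in purple and the median of tested genes dashed. Slc15a2 (0.61) and Eps8l1 (0.57) lie above their neighbours and are exceeded by 150 and 172 genes, and Mbnl1 (0.13) lies near the median.

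A single library carried part of this spread. Without male T 6, the SD of Bmf was 0.15 and that of 2610035D17Rik 0.22, while Slc15a2 stayed at 0.65 and Eps8l1 at 0.48. The nearest tested gene on each side gives the spread of the surroundings, and the median SD of these 14 neighbours was 0.14. Beside Slc15a2, Ildr1 had 0.13 and Eaf2 0.19, and beside Eps8l1, Rdh13 had 0.08 and Ppp1r12c 0.15. The neighbours of 2610035D17Rik (Map2k6 0.12, Slc39a11 0.16), Rnf157 (Exoc7 0.10, Ubald2 0.14) and Gm15800 (Rpl6 0.18, Trafd1 0.16) also had smaller SDs than the gene between them, as did those of Bmf (Srp14 0.14, Bub1b 0.22). Mbnl1 was the exception, with 0.36 for Gpr171 and 0.11 for Rap2b.

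In T cells the differences between pools followed the library number in both sexes for part of these genes. Each T cell library of 1 sex deviated from its group mean to the same side as the library of the other sex with the same number in 17 of 21 gene and number combinations, against 8 of 21 in B cells. This count was not made over all genes tested, for which same-number T cell libraries also deviated together (r between 0.521 and 0.721). The deviations of a gene within a group cancel out, so the combinations are not independent. Slc15a2 was lowest in number 5 in both sexes, 2610035D17Rik, Eps8l1 and Bmf were lowest in number 6, and Rnf157 and Gm15800 were highest in number 6. For Bmf in females this was narrow, with 1.74 in number 6 and 1.76 in number 5 and overlapping bounds. With the number taken out as a block, the SD in T cells went from 0.45 to 0.10 for Slc15a2, from 0.32 to 0.07 for Rnf157 and from 0.28 to 0.07 for Gm15800. For Eps8l1 it went only from 0.61 to 0.45, for 2610035D17Rik from 0.43 to 0.27 and for Bmf from 0.40 to 0.34, and for Mbnl1 it stayed at 0.06. The median gene tested went from 0.13 to 0.09, so the number was shared by much of the transcriptome of these T cell libraries. In B cells it went from 0.73 to 0.54 for Slc15a2, from 0.53 to 0.48 for Eps8l1 and from 0.24 to 0.18 for Rnf157, but up from 0.25 to 0.27 for 2610035D17Rik, from 0.17 to 0.20 for Bmf, from 0.10 to 0.14 for Gm15800 and from 0.17 to 0.23 for Mbnl1, and the median gene stayed at 0.13. In T cells the number held 72.6% of the within-group variance of the median gene tested. The share was 81.0% to 97.6% for Slc15a2, Rnf157, Gm15800 and 2610035D17Rik. It was under that median for Eps8l1 (72.2%), Bmf (64.0%) and Mbnl1 (48.0%). The block uses up part of the degrees of freedom within groups, so the number holds a share even without a common effect. In B cells the share was 41.6% for the median gene tested, 73.1% for Slc15a2, 72.1% for Rnf157 and 59.9% for Eps8l1. It was 39.0% for 2610035D17Rik, 34.7% for Bmf, 9.12% for Mbnl1 and 6.23% for Gm15800. The labels do not say what a shared number stands for.

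**Figure D3:**
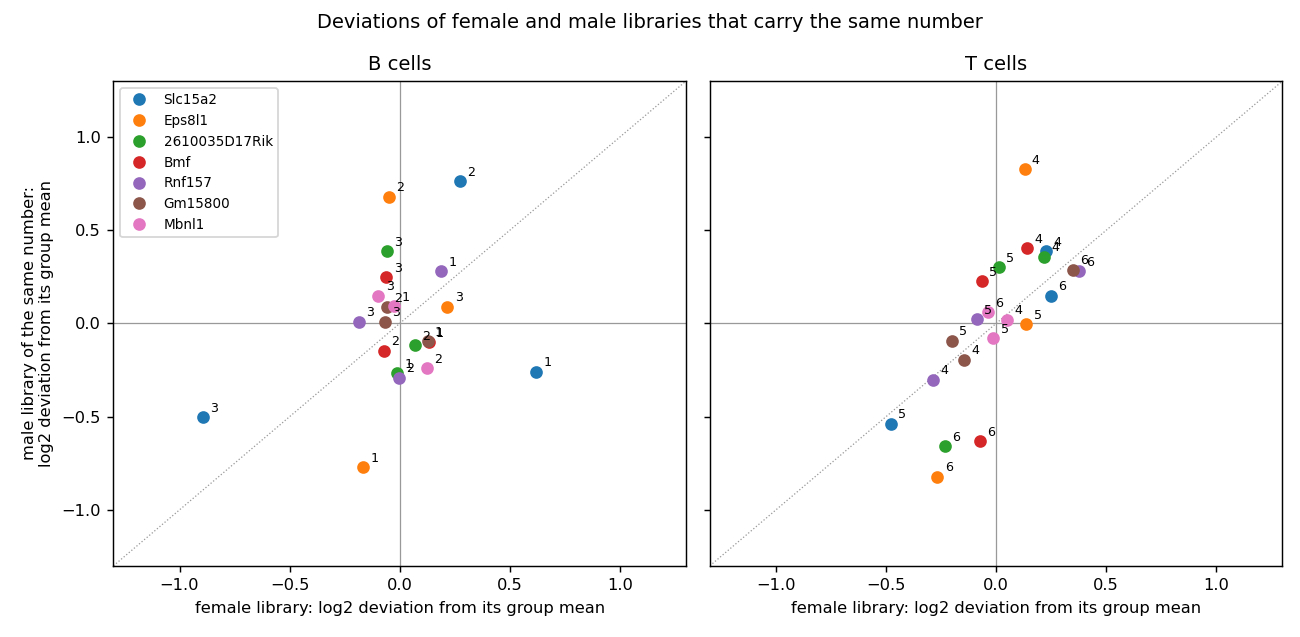
Deviation of a female library from its group mean (x axis, log2 units) against that of the male library with the same number (y axis) for the 7 genes, with B cells on the left, T cells on the right and the library number beside each point. In T cells 17 of 21 points fall in the quadrants of equal sign, and in B cells 8 of 21.

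The contrast of B with T cells asked which of the genes differ between these lymphocytes. Bmf and Rnf157 were higher in B cells, Mbnl1 and 2610035D17Rik were higher in T cells, and Slc15a2, Eps8l1 and Gm15800 did not pass the threshold. These 4 of 7 calls stand against 73.0% of all genes tested, 31.4% of them higher in B and 41.6% higher in T cells, so a call in itself says little about these genes. No overlap between the 6 B and the 6 T cell libraries was seen for 3 of the 7 (Bmf, Rnf157 and Mbnl1), against 53.9% of genes tested. In such bulk samples fewer cells of a type and less RNA per cell cannot be told apart.

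Bmf had a mean of 18.6 ± 2.23 adjusted TPM in B and 1.97 ± 0.679 in T cells (SD, n = 6 each). The difference of log2(adjusted TPM + 1) was 2.75 ± 0.15 (SE, limma, adjusted p = 2.89e-09), and this pseudocount makes it smaller than the ratio of the means. Rnf157 had 12.3 ± 1.99 in B and 1.73 ± 0.559 in T cells (SD, n = 6 each), a difference of 2.30 ± 0.14 (SE, limma, adjusted p = 7.99e-09). Mbnl1 had 197.9 ± 20.3 in B and 348.8 ± 12.9 in T cells (SD, n = 6 each), a difference of -0.82 ± 0.08 (SE, limma, adjusted p = 6.32e-07). 2610035D17Rik had 8.14 ± 1.70 in B and 13.4 ± 3.59 in T cells (SD, n = 6 each), a difference of -0.63 ± 0.17 (SE, limma, adjusted p = 0.00516). Female T 6 and male T 6 lay within the B cell range of 2610035D17Rik, and male B 3 within its T cell range. With every library rescaled to the same total, which moves the median of all tested genes to 0.25, the calls of Mbnl1 and 2610035D17Rik were lost (-0.44, limma adjusted p = 0.0787, and -0.29, limma adjusted p = 0.194).

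For the genes that did not pass, the intervals leave room for a change. The difference was 0.02 for Slc15a2, with a 95% interval from -0.61 to 0.65, and -0.05 for Eps8l1, from -0.64 to 0.54. These were the widest intervals of the 7 genes. Gm15800 had a difference of -0.16, from -0.39 to 0.07. The sign of the Slc15a2 and Eps8l1 differences changed when single libraries were left out.

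**Figure D4:**
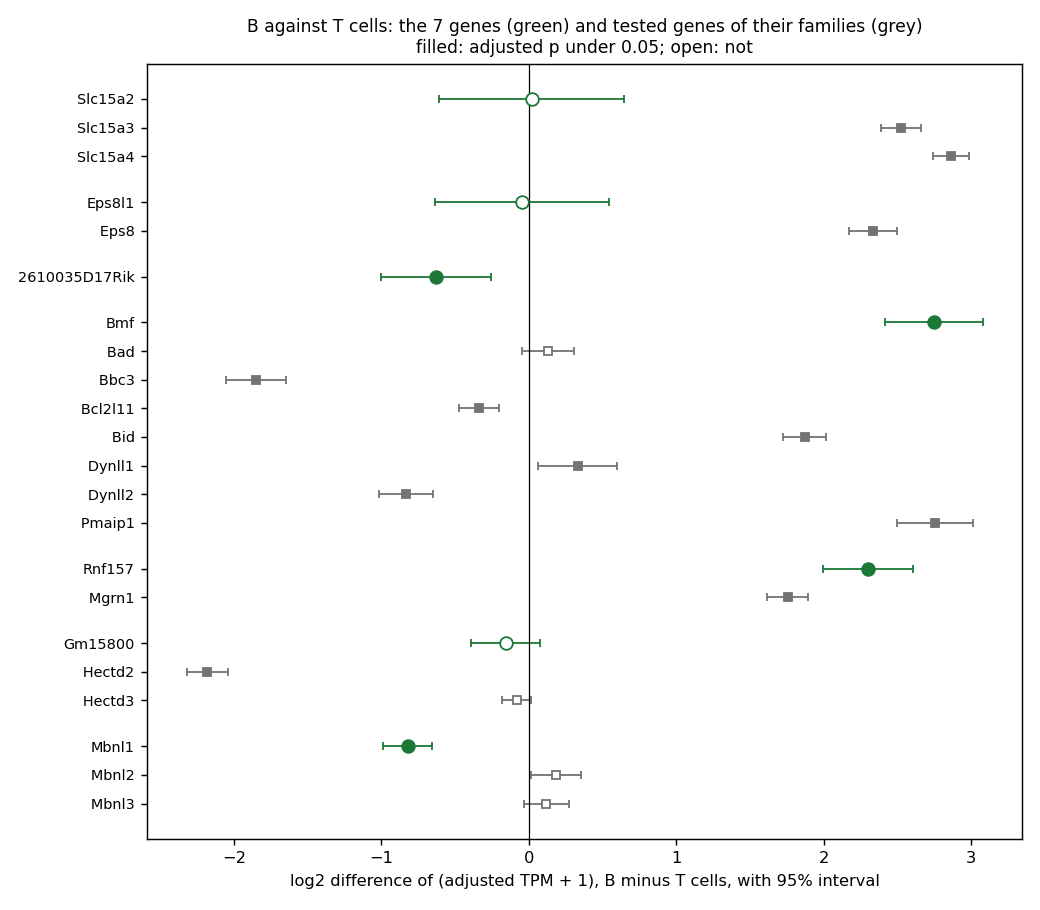
Difference of log2(adjusted TPM + 1), B minus T cells, with its 95% interval, for the 7 genes (green circles) and the tested genes of their families (grey squares), filled where the adjusted p was under 0.05. Bmf (2.75) and Rnf157 (2.30) lie on the B cell side, as do Slc15a4 (2.87) and Mgrn1 (1.76), Mbnl1 (-0.82) and 2610035D17Rik (-0.63) on the T cell side, and the intervals of Slc15a2, Eps8l1 and Gm15800 include 0.

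The relatives of the 7 genes give the setting of these levels. Of 21 genes in the family lists, 15 were tested and 11 passed the threshold, 7 higher in B and 4 higher in T cells, a share close to the 73.0% of all genes tested. Slc15a3, Eps8 and Hectd2 reached the filter value in only 1 of the cell types, so the direction of their difference was fixed by the filter, and their values are given as a description. Among the peptide transporters, Slc15a4, which works in endolysosomes, had 73.3 ± 5.31 adjusted TPM in B and 9.18 ± 0.357 in T cells (SD, n = 6 each), and its relative Slc15a3 had 4.87 ± 0.442 in B and at most 0.0369 in T cells. Slc15a4 passed in favour of B cells (log2 difference of 2.87), and Slc15a1 and Slc15a5 were under the filter on low values. In the EPS8 family, Eps8 had 4.09 ± 0.518 in B (SD, n = 6) and at most 0.00417 in T cells, while Eps8l1 was at 13.7 ± 6.66 and 13.6 ± 5.38 (SD, n = 6 each). Eps8l2 and Eps8l3 were under the filter in both cell types.

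The BH3-only relatives of Bmf and the dynein light chains that bind such proteins changed in both directions. Of 7 tested, 3 were higher in B cells (Bid, Pmaip1 and Dynll1, with log2 differences of 1.87, 2.76 and 0.33) and 3 in T cells (Bbc3, Bcl2l11 and Dynll2, with -1.85, -0.34 and -0.83), and Bik and Hrk were under the filter. With every library rescaled to the same total Bcl2l11 changed its sign and did not pass, and Dynll1 did not pass without 1 of 6 libraries (female B 2, male B 1, male B 2, female T 6, male T 4 or male T 5). Bad had a difference of 0.13 and did not pass (limma, adjusted p = 0.158). Bmf and Pmaip1 had the largest differences towards B cells in this group. Pmaip1 reached the filter value in 6 B and only 1 T cell libraries. It was thus tested only because of its B cell level, and its direction is given as a description. Mgrn1, the ubiquitin ligase most closely related to Rnf157, had 39.8 ± 2.93 adjusted TPM in B and 11.1 ± 0.721 in T cells (SD, n = 6 each), a log2 difference of 1.76 in the direction of Rnf157. Of the HECT domain genes, Hectd2 had 3.55 ± 0.317 adjusted TPM in T (SD, n = 6) and at most 0.00109 in B cells, and Hectd3 (-0.08) did not pass. Mbnl2 (0.19, limma adjusted p = 0.0507) and Mbnl3 (0.12, limma adjusted p = 0.139) did not pass, while Mbnl1 was higher in T cells.

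The 14 nearest tested neighbours all passed in this contrast, against 73.0% of genes tested, 5 higher in B and 9 higher in T cells. With every library rescaled to the same total, 7 of them lost the call, and 5 of these changed their sign (Rdh13, Ppp1r12c, Map2k6, Exoc7 and Ubald2). Under median-ratio scaling Ppp1r12c, Map2k6 and Exoc7 lost it, and Map2k6 lost it with the upper bounds. Map2k6, Exoc7 or both also lost it in several runs without 1 library. Ildr1 and Eaf2, beside Slc15a2, and Bub1b, beside Bmf, reached the filter value in B cells only, so the direction of their difference was fixed by the filter. Ildr1 had 1.72 ± 0.213 adjusted TPM in B and 0.603 ± 0.129 in T cells, and Eaf2 had 3.98 ± 1.06 and 0.149 ± 0.0618 (SD, n = 6 each). Srp14, on the other side of Bmf, had a difference of -0.42, and Mbnl1 lay between Gpr171 (0.72) and Rap2b (-1.61).

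The sexes were then set against each other in B and in T cells. The library names carry a further digit, the same for female B and male T cells and another for male B and female T cells. What it stands for was not established here. Within a cell type it cannot be told apart from sex, nor over all groups from the difference of the sex effects. None of the 7 genes passed in B cells (limma, background 0.144% of genes tested; 1 of the 7 with an unadjusted p under 0.05) or in T cells (limma, background 0.104%; 0 of the 7 with an unadjusted p under 0.05). The 1 gene was Eps8l1, with 18.9 ± 2.77 adjusted TPM in female and 8.36 ± 4.39 in male B cells (SD, n = 3 each). Its log2 difference was 1.20 ± 0.38 (SE, limma, adjusted p = 0.923), with a 95% interval from 0.37 to 2.03. The 3 female B cell libraries were all above the 3 male ones. No overlap between the sexes in B cells, in either direction, was seen for 7.20% of genes tested. In T cells Eps8l1 had 16.4 ± 2.64 in females and 10.8 ± 6.50 in males (SD, n = 3 each), a difference of 0.70 with an interval from -0.14 to 1.53, and the groups overlapped. None of the 7 genes was without overlap in T cells, against 8.49% of genes tested. When every library was rescaled to the same total, the Eps8l1 difference in B cells was 1.16 (SE 0.27, limma adjusted p = 0.00857) and passed. The sexes overlapped in that run, with 16.7, 24.1 and 39.3 in female and 5.26, 19.1 and 11.7 in male B cells. The SD of Eps8l1 within groups was 0.76 there, against 0.57 in the main run. The smaller SE therefore does not reflect a smaller spread of this gene, and the pass does not show a difference between the sexes.

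For the other 6 genes the differences between the sexes ran from -0.17 (2610035D17Rik) to 0.10 (Bmf) in B cells and from -0.15 (Rnf157) to 0.40 (Slc15a2) in T cells, each with an interval that includes 0. All these intervals come from the fit without the library number. In T cells the number held 97.6% of the within-group variance of Slc15a2 and 97.2% of that of Rnf157. Their T cell intervals include that variance and are wide, so an interval that includes 0 does not show equal levels. The difference of the sex effects between the cell types did not pass for any of the 7, nor for any gene tested (limma, background 0.00%), although 295 genes had an unadjusted p under 0.05, none of them among the 7.

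The genes whose pattern over the 12 libraries was most like that of a member were found by Pearson's r of log2(adjusted TPM + 1) over all genes tested, as a description. For Bmf they were Itpr3, Dgkd and Cnpy3 (r between 0.993 and 0.994), for Rnf157 Abl2, Mgat4a and Ndst1 (0.992 to 0.994), and for Mbnl1 Ikzf1, Dpysl2 and Pacsin1 (0.990 to 0.993). These values rest in large part on the difference between the cell types, which these genes share. For 2610035D17Rik they were Tab1 (0.963), A930029G22Rik (0.951) and 4930513N10Rik (0.948), and for Gm15800 Tet3 (0.962), Rasa1 (0.926) and Gm15122 (0.926). The most alike of Eps8l1 were Tsacc (0.92), Itgam (0.815) and Oaz1-ps (0.80), and of Slc15a2 Amacr (0.766), Top1 (0.737) and Gm11604 (0.733). Over deviations from the group means, which leave out the difference between cell types, the same genes had r between 0.727 and 0.926 with Eps8l1 or Slc15a2 and between 0.793 and 0.843 with Bmf. The range was 0.799 to 0.925 with Rnf157, 0.87 to 0.922 with Mbnl1, 0.883 to 0.949 with 2610035D17Rik and 0.948 to 0.98 with Gm15800. All were picked as the closest genes in these same libraries, so their r values carry that selection. Tsacc followed Eps8l1 at a much lower level, from 0.891 to 1.78 adjusted TPM.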

How the data were processed

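Per the labels, reads of ribosomal RNA-depleted, strand-specific libraries from pools of mice were processed with Trim Galore, FastQC and STAR on build mm10. The tool that made the adjusted TPM, how it adjusted them and which level its bounds have are not given in the sources used here. The authors deposited a signal (adjusted TPM) with a lower and an upper bound for 41128 genes in 12 libraries, and the depth is unknown. Some label fields name genomic DNA, and the values were treated as RNA.

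Genes with at least 1 adjusted TPM in at least 3 libraries (12520) were fitted with limma 3.58.1 in R 4.3.3 on log2(adjusted TPM + 1), with 1 coefficient per group and a variance trend. P-values were adjusted by Benjamini-Hochberg over all genes tested, with a threshold of 0.05. The fit was tested on simulated data. Other steps used Python 3.11.15, numpy 2.4.6 and pandas 2.3.3, and plots matplotlib 3.10.9. Positions are of GENCODE M21 (GRCm38), and promoter windows of RefSeq (GRCm38.p6). The element positions of the study were used only to sort transcripts and exons.

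The 7 genes, the family lists and the comparisons were chosen with earlier results of these data known, and 1 further family gene is not reported here. Named beside them are the nearest tested gene on each side and the 3 genes with the highest Pearson r over the 12 libraries. Groups come from the labels, and p-values measure the spread between pools. T cell libraries of the same number deviated together across genes (r between 0.521 and 0.721), while the B cell libraries did not (r between -0.337 and -0.0382). The main fit held no term for the number, so its contrasts between the sexes were unpaired. Among the fits, only the run with the replicate block took the number out, and it did so in both cell types.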

Additional observations from a re-analysis of the deposited data

How the results depend on the processing

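For B against T cells the number of genes past the threshold was 24591 without the filter on low values, against 9134 with it, and the members past it were 2 instead of 4 once each library was rescaled to 1000000 in total (Mbnl1 and 2610035D17Rik lost). Under that rescaling 36 genes passed between the sexes in B cells, 23 in T cells and 16 for the difference of the sex effects, against 18, 13 and 0. The 1 member among the 36 was Eps8l1, whose female and male libraries then overlapped. Without the filter the corresponding counts were 10985, 10607 and 11201. In T cells 24 passed with a pseudocount of 0.1 and 8 with the lower bounds, in B cells 5 with the libraries of that cell type alone, and for the difference of the sex effects 1 with a pseudocount of 0.1 and 3 without the variance trend. With the replicate block 14 genes passed in B cells, where the numbers do not pair the libraries, 10 in T cells and 0 for the difference, and no call of a member changed. The cause of these shifts was not tested.

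Leaving out each library in turn gave 8717 to 9193 genes for B against T cells, 12 to 18 and 9 to 14 between the sexes in B and T cells, 0 to 3 for the difference (3 without female T 6) and 4 of the members for B against T cells throughout. The family genes past the threshold numbered 10 to 12, and the median SD of the members was 0.22 to 0.33, the lowest without male T 6. With the rescaled totals this median was 0.42, against 0.30 for all genes tested (0.31 and 0.13 otherwise).

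None of the 4 differences of the members that passed for B against T cells changed its sign under any alternative run. With the rescaled totals 1 family gene and 5 neighbours that had passed changed sign. Among the members' differences that did not pass, the B against T difference of Eps8l1 was 0.033 under median-ratio scaling and 0.30 under the rescaled totals, and that of Gm15800 was 0.20 under the rescaled totals. Between the sexes in T cells, the rescaled totals gave 0.20 for 2610035D17Rik, 0.14 for Bmf and 0.045 for Rnf157, and Bmf was at 0.036 with a pseudocount of 0.1 and at 0.0099 with the lower bounds. With single libraries left out, the B against T difference ran from -0.17 to 0.24 for Slc15a2 and from -0.25 to 0.16 for Eps8l1. The sex difference in B cells ran from -0.41 to 0.34 for Slc15a2, from -0.31 to 0.021 for 2610035D17Rik, from -0.076 to 0.21 for Rnf157 and from -0.14 to 0.055 for Mbnl1. In T cells it ran from -0.39 to 0.12 for 2610035D17Rik, from -0.33 to 0.19 for Bmf, from -0.11 to 0.21 for Gm15800 and from -0.034 to 0.036 for Mbnl1.

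The depth is unknown, each group has 3 libraries, and sums over transcripts do not show which start or end was used.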

Other observations

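Vmn2r97, a vomeronasal receptor gene that the study also listed with an initiating element, was under the filter on low values and was not tested. Its level was 0.0923 to 0.199 adjusted TPM in the 6 B cell libraries and 0.231 to 0.809 in the 6 T cell libraries, without overlap. Female T cells 4 to 6 had 0.793, 0.809 and 0.779, and male T cells 4 to 6 had 0.231, 0.614 and 0.680, so male T 4 was the lowest. The upper bound of male T 4 (0.371) was below the lower bound of every other T cell library.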
